A study of Homo sapiens with 2 samples.

Results

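The nuclear genes for the protein subunits of the mitochondrial ribosome were followed in H1299 cells, an established line from a lung carcinoma of the non-small cell class, either untreated (control) or given 5 mM metformin, a biguanide that lowers blood glucose. Gene IDs were mapped to symbols, and protein-coding genes whose symbol begins with MRPL or MRPS and a digit were taken, 49 named for the large and 28 for the small subunit. These 77 genes of 27685 in the tables were the members. Another 8 genes with such names are pseudogenes or non-coding and were left out, and the gene once called MRPS36 is now KGD4 and not taken by the rule. The data were 1 RNA sequencing library per group, and both groups differ in the drug alone as far as the labels say. The labels give no time of treatment. No difference therefore has a replicate check, fewer cells and less RNA per cell cannot be told apart in such bulk samples, no test was run, and intervals on ratios are exact (Clopper-Pearson) 95% intervals that cover the counting of reads only.

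Mitochondria hold their own ribosome, which makes the few proteins encoded by mitochondrial DNA, all of them subunits of the respiratory chain and ATP synthase. Its RNAs come from mitochondrial DNA, while all of its proteins are encoded in the nucleus, made in the cytosol and imported. Some of these proteins have a counterpart in bacterial ribosomes and others are found in mitochondria only. Complex I, a known target of metformin in the respiratory chain, contains products of this ribosome.

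Depth was estimated at 28.7 M (control) and 31.7 M (metformin) read pairs. Levels are in TPM, a relative transcript abundance that takes account of gene length and sums to the same total in each library. The keratins KRT8 and KRT18 and the filament gene VIM stood at 269, 553 and 4378 TPM without metformin and 521, 954 and 4962 with it, and EPCAM was below 1 TPM in both. None of 7 markers of blood, endothelial, fibroblast or liver cells reached 1 TPM, the highest being COL1A1 at 0.166 and 0.342 TPM.

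Most of the 77 genes had a slightly lower level in the metformin library. On the log2(TPM + 1) scale the difference, as metformin minus control throughout, was below 0 for 64 genes and above 0 for 13, against 62.5% below 0 among the 8889 genes with at least 10 TPM in each library and 59.7% among all 14078 measured genes. Every one of the 77 had at least 10 TPM in each. The median difference was -0.18 (95% order-statistic interval over the genes -0.25 to -0.15), beside -0.09 for the genes at 10 TPM or more and -0.08 for all measured genes. This and every later interval of a median describes the genes of 1 library pair, which are not independent, and not the spread between libraries. A measured gene is one with 1 TPM or more in at least 1 library. Counting intervals lay wholly below 1 for 52 genes, wholly above 1 for 6, and included 1 for 19. The same counts were not made over all measured genes, whose median was also below 0. These counts therefore do not set the members apart from other genes.

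The shift was small for nearly every gene. In all, 74 of the 77 lay within 1.5-fold of control on the log2(TPM + 1) scale (96.1%), beside 91.4% of the genes at 10 TPM or more and 87.6% of all measured genes. The interquartile range of the difference was 0.25 over the 77 genes and 0.38 over those genes. Only MRPL10 was higher by 2-fold or more and only MRPS27 lower, 1 gene each. Over all measured genes 1.51% were higher and 1.24% lower by that rule, and at 10 TPM or more in both 0.686% and 0.63%, so 1 of 77 each way is near the background. In either direction the shares were 2.76% and 1.32%. After centring on the genes at 10 TPM or more, 270 measured genes were higher and 114 lower in place of 213 and 175. The summed level of the 77 genes was 0.916% of all TPM in control and 0.797% in metformin.

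**Figure D1:**
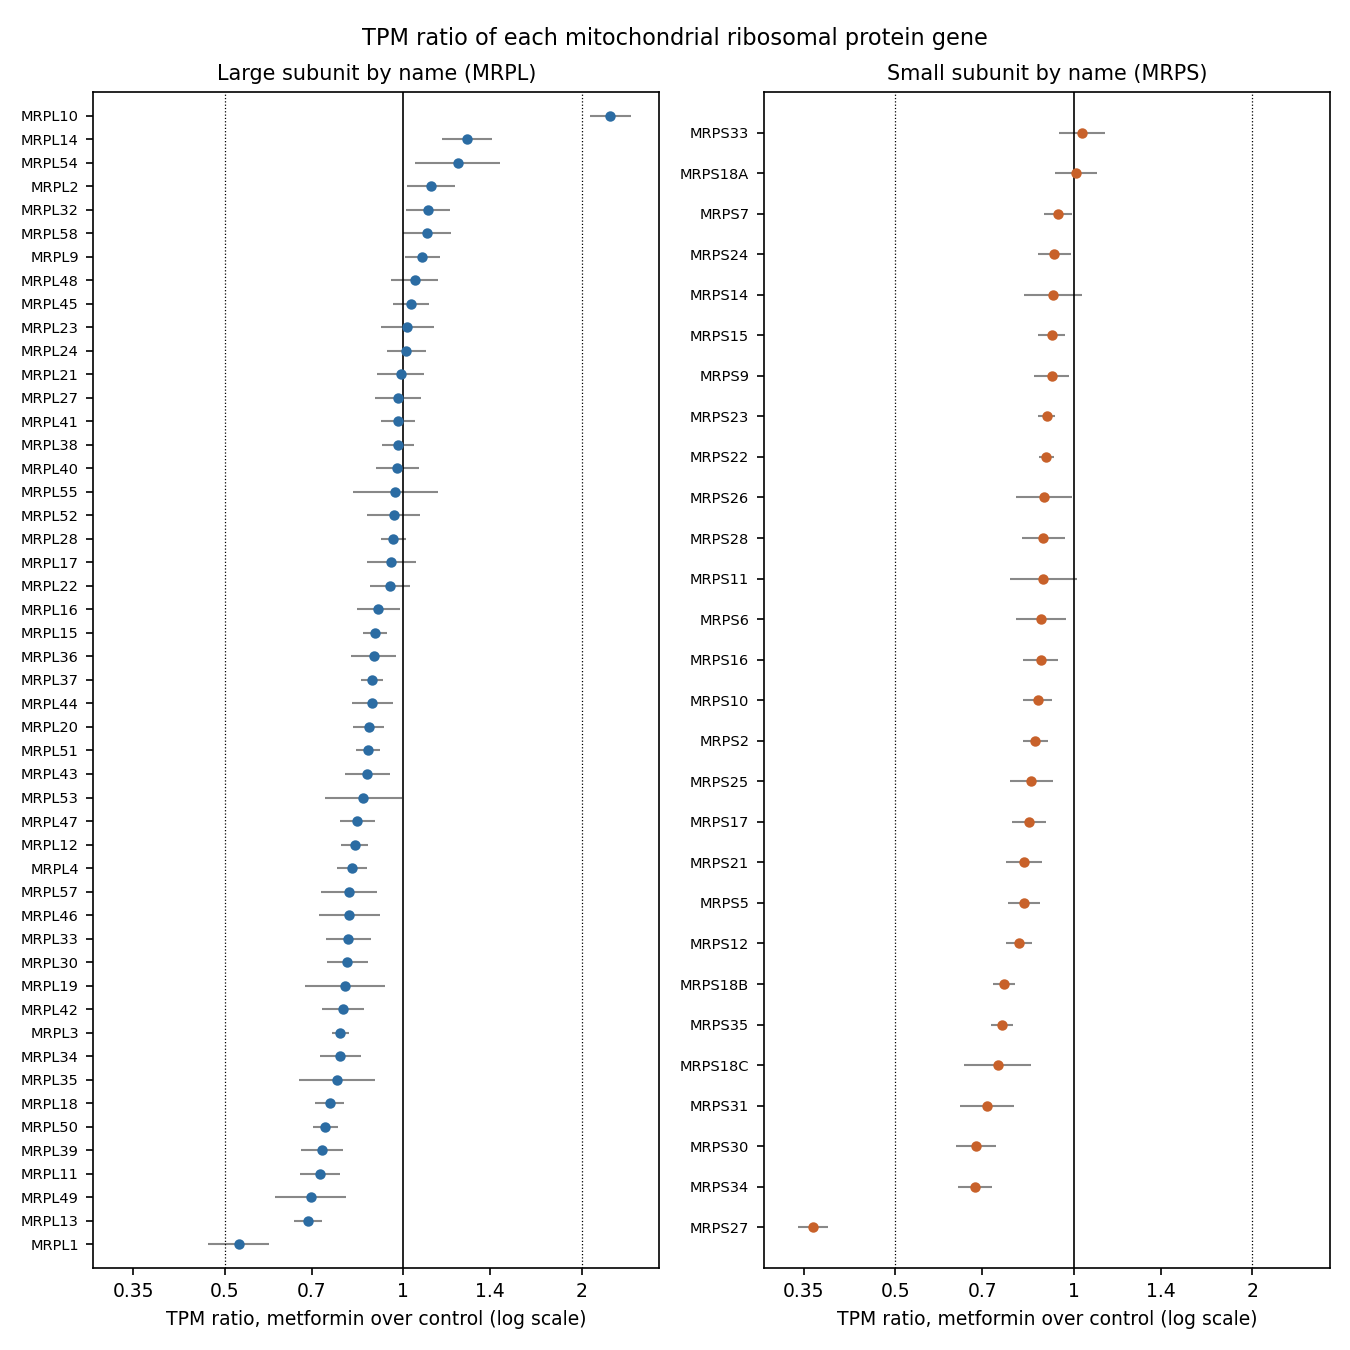
TPM ratio of metformin over control (log scale) for each of the 49 MRPL genes (left) and 28 MRPS genes (right), points with exact 95% counting intervals as bars; the solid line marks no difference and the dotted lines 2-fold. Most points lie a little left of 1, with MRPS27 at 0.363, MRPL1 at 0.528 and MRPL10 at 2.23 apart from the rest.

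The lowest ratio belonged to MRPS27, which encodes a pentatricopeptide repeat protein of the small subunit, a type of protein known for binding RNA. MRPS27 was listed at 118 TPM without metformin and 42.8 with it, a ratio of 0.363 (0.342 to 0.384). The gene (NCBI gene 23107) lies on the minus strand of chromosome 5, from 71515236 to 71616084 of hg19, and overlaps no other gene by the deposited positions. Its level stood at percentile 89.2 of the measured genes in control. The next lowest was MRPL1, the protein of the mobile stalk beside the site where used tRNAs leave, which stood at 53.0 and 27.96 TPM, a ratio of 0.528 (0.469 to 0.594). MRPL1 (NCBI gene 65008) spans 78783805 to 78873944 on the plus strand of chromosome 4. Its difference was -0.90, the closest of all 77 to the 2-fold limit from inside.

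At the other end stood MRPL10, the protein that carries the L7/L12 stalk, where translation factors dock. MRPL10 was listed at 39.2 TPM without metformin and 87.6 with it, a ratio of 2.23 (2.06 to 2.42). The gene (NCBI gene 124995) lies on the minus strand of chromosome 17, from 45900638 to 45908907 of hg19. The next highest were MRPL14 at 1.28 (1.16 to 1.41) and MRPL54 at 1.23 (1.05 to 1.46). Leaving out MRPS27, MRPL1 and MRPL10, the other 74 ratios ran from 0.681 to 1.28. MRPS27 and MRPL10 thus stood at opposite ends of the group, and each stayed past 2-fold under every alternative scaling tried.

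By subunit, the small subunit was lower more uniformly than the large one. In the small subunit 26 of 28 genes lay below 0, with a median difference of -0.19 (-0.28 to -0.15), and in the large subunit 38 of 49, with a median of -0.17 (-0.27 to -0.05). The intervals of these medians overlap, and the difference between the subunits was not tested. The summed TPM was 5717 in control and 5093 in metformin for the large subunit, a ratio of 0.891, and 3441 and 2875 for the small subunit, a ratio of 0.836. Without MRPS27, the small-subunit gene with the lowest ratio, and without MRPL1 and MRPL10, the summed ratios were 0.885 and 0.852. Per gene, the mean level was 117 TPM (large) and 123 (small) in control and 104 and 103 in metformin.

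A name does not always give the place in the ribosome. MRPS30 and MRPS18A are known to sit in the large subunit, under the systematic names mL65 and mL66. MRPS30 was listed at 74.7 TPM without metformin and 51.1 with it, a ratio of 0.684 (0.633 to 0.739), and MRPS18A at 94.4 and 95.2, a ratio of 1.01 (0.930 to 1.09). Moved to the large subunit, they left 25 of 26 small-subunit genes and 39 of 51 large-subunit genes below 0, with the medians at -0.19 and -0.17 as before. MRPS33 was then the only small-subunit gene above 0, at 98.2 and 101.4 TPM, with an interval that included 1.

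The 3 genes related to bacterial S18 differed in level and ratio. MRPS18B, a small-subunit protein also called mS40, was the most abundant, at 274 TPM without metformin and 208 with it, a ratio of 0.761 (0.730 to 0.794). MRPS18C, which takes the place of bacterial S18 itself, was listed at 62.7 and 46.7, a ratio of 0.744 (0.653 to 0.848). The counting intervals of MRPS18B and MRPS18C overlap each other and both lie below that of MRPS18A, given above.

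**Figure D2:**
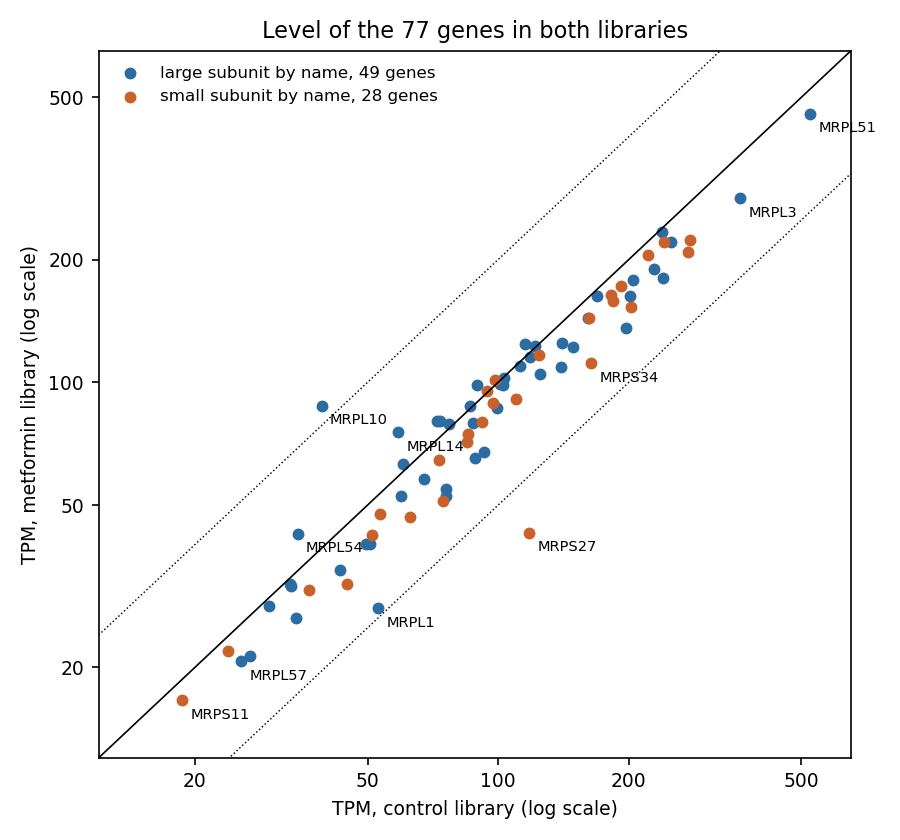
TPM in the control library against TPM in the metformin library for the 77 genes (both axes log scale), coloured by subunit name; the solid line marks equal levels and the dotted lines 2-fold. The genes follow the line of equal levels from MRPS11 (18.7 and 16.6 TPM) to MRPL51 (523 and 456 TPM), with MRPL10 above and MRPS27 and MRPL1 below.

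Levels spanned more than an order of magnitude within each subunit, and their order was similar in both libraries. The Spearman correlation of control and metformin TPM over the 77 genes, which share the same pair of libraries, was 0.957. By the mean of both libraries, MRPL51 was the most abundant of the large subunit, at 523 and 456 TPM, followed by MRPL3 at 361 and 283 and MRPL41 at 238 and 233. MRPL57, MRPL19 and MRPL17 were the least abundant by that mean, at 25.6, 26.8 and 29.7 TPM (control) and 20.7, 21.3 and 28.3 (metformin). In the small subunit, also by the mean, MRPS12 led, at 276 and 223 TPM, before MRPS18B and MRPS15, at 241 and 221. MRPS11, MRPS14 and MRPS25 closed the order, at 18.7, 23.9 and 36.6 TPM (control) and 16.6, 21.99 and 31.0 (metformin).

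Around the L7/L12 stalk, which recruits and activates the translation factors, the genes went in both directions. MRPL12, the repeated protein of the stalk itself, was listed at 229 TPM without metformin and 189 with it, a ratio of 0.827 (0.784 to 0.873), while MRPL10, to which it binds, had the ratio of 2.23 given above. The control level of MRPL12 was therefore several-fold that of MRPL10, and the gap was narrower in metformin. MRPL11, at the base of the stalk, stood at 75.7 and 54.8 TPM, a ratio of 0.724 (0.669 to 0.783). MRPL53 was listed at 67.6 and 57.8, and MRPL54 at 34.5 and 42.6. Of these 5 genes 3 lay below 0, with a median of -0.22.

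Genes at the exit for the new protein chain were split, some close to their control level and some lower. Of 8 such genes 5 lay below 0, the same 62.5% as among the genes at 10 TPM or more, with a median of -0.07. After centring on those genes 3 of 8 did, with a median of 0.02. MRPL45, which tethers the ribosome to the inner membrane, was listed at 76.9 TPM without metformin and 79.1 with it, with a counting interval of the ratio from 0.959 to 1.104. MRPL22, MRPL23 and MRPL24, which ring the exit, had ratios of 0.948, 1.02 and 1.01, each with an interval that included 1. MRPL17 stood at 0.954, MRPL44 at 0.885 (0.817 to 0.959) and MRPL47 at 0.836 (0.780 to 0.895) of control. MRPL39 had the lowest ratio of the 8, at 92.8 and 67.6 TPM (0.728, interval 0.671 to 0.791).

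Among the genes near the peptidyl transferase centre, where peptide bonds are formed, 4 of 5 lay below 0 with a median of -0.14. Centred on the genes at 10 TPM or more, 3 of 5 did, with a median of -0.05. MRPL3 was at 0.783 (0.757 to 0.810) and MRPL4, which lines the tunnel, at 148 and 122 TPM, a ratio of 0.820. MRPL16, at 87.4 and 79.3 TPM, and MRPL27, at 101.1 and 99.0, which reach toward the tRNAs, stood at 0.907 and 0.979. MRPL2 was the member above 0, at 72.1 and 80.2 TPM, a ratio of 1.11 (1.01 to 1.22). In the central protuberance, the crest that faces the small subunit, 5 of 6 lay below 0 with a median of -0.04, but after centring on the genes at 10 TPM or more 2 of 6 did, with a median of 0.04. MRPL18 stood at 240 and 180 TPM, a ratio of 0.751 (0.711 to 0.793), and MRPL46 at 49.5 and 40.1, a ratio of 0.810, while MRPL38, MRPL40 and MRPL52 had ratios from 0.962 to 0.978 with intervals that included 1. MRPL48 was listed at 60.4 and 63.1 TPM.

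Of the other large-subunit genes, MRPL13 and MRPL49 followed MRPL1 at the low end. MRPL13 was listed at 197 TPM without metformin and 136 with it, a ratio of 0.690 (0.654 to 0.729), and MRPL49 at 75.6 and 52.8, a ratio of 0.698 (0.607 to 0.801). MRPL50 stood at 88.4 and 65.2 TPM. MRPL58, a peptidyl-tRNA hydrolase that frees stalled ribosomes, was listed at 73.4 and 80.4 TPM, and its interval of 0.997 to 1.20 included 1. MRPL32, whose maturation by a mitochondrial protease is known to gate assembly, was listed at 89.5 and 98.5 TPM, with an interval of 1.01 to 1.20. MRPL14, which faces the small subunit and is bound by the assembly factor MALSU1, was at 58.9 and 75.3 TPM. MRPL9 stood at 115 and 124 TPM, a ratio of 1.08 (1.004 to 1.15).

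Genes were also classed by origin, with MRPS30 counted in the large subunit and MRPL55 and MRPS18A placed in no class. Of the 29 large-subunit genes with a bacterial counterpart 22 lay below 0, with a median of -0.17, and of the 20 found in mitochondria only, MRPS30 included, 16 did, with a median of -0.19. Centred on the genes at 10 TPM or more, 17 of 29 and 12 of 20 did, with medians of -0.08 and -0.10. In the small subunit all 16 genes with a bacterial counterpart lay below 0, with a median of -0.18. Of the 10 classed as found in mitochondria only 9 did, with a median of -0.31. The intervals of the last pair of medians, -0.27 to -0.12 and -0.55 to -0.15, overlap. After centring, 16 and 9 were still below 0. The 10 include MRPS18B, although it is related to bacterial S18. Their median lies between MRPS18B at -0.39 and MRPS25 at -0.23, so its size depends on that placement.

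On the small subunit, the genes along the path of the mRNA and at the decoding site all lay below 0, 6 of 6, with a median of -0.17. So did 26 of the 28 small-subunit genes by name, with a median of -0.19, and 62.5% of the genes at 10 TPM or more. After centring on the genes at 10 TPM or more 6 of 6 still did, with a median of -0.08. MRPS7, at -0.089, lay next to the shift of -0.088 used for centring. MRPS12, at the decoding site, stood at a ratio of 0.808 (0.769 to 0.850). MRPS5 was listed at 51.3 TPM without metformin and 42.2 with it, a ratio of 0.823, and MRPS2 at 184 and 158, a ratio of 0.861. MRPS24, at 221 and 205, MRPS9, at 97.2 and 89.1, and MRPS7, at 124 and 117, had ratios of 0.927, 0.917 and 0.940. Among the others MRPS34, which is known to stabilise the small ribosomal RNA, had the next lowest ratio after MRPS27, at 164 and 112 TPM (0.681, interval 0.637 to 0.727). MRPS31 stood at 44.9 and 32.0 TPM (0.713) and MRPS35 at 202.4 and 153 (0.756). MRPS22 and MRPS23, the genes with the most estimated read pairs of the subunit, had counting intervals of 0.872 to 0.925 and 0.871 to 0.931. For MRPS22 the estimate used a length of 3792 bases, where the canonical transcript has 1205. Its rank depends on that length, and its interval may be too narrow.

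Subunits that do not carry an MRP name were looked at beside these. DAP3, a GTP-binding protein of the small subunit, was listed at 157 TPM without metformin and 170 with it, a ratio of 1.09 (1.04 to 1.14). CHCHD1 was at 78.8 and 59.6, a ratio of 0.756, and PTCD3, the other pentatricopeptide repeat protein of the small subunit, at 40.2 and 34.01, a ratio of 0.846 (0.789 to 0.906), well above that of MRPS27. AURKAIP1, at 290 and 281 TPM, and GADD45GIP1 of the large subunit, at 262 and 256, had intervals that included 1. Of these 5 genes 4 lay below 0, with a median of -0.04, and after centring 2, with a median of 0.05.

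The genes that build and serve the mitochondrial ribosome were looked at by role, against the 62.5% below 0 among the genes at 10 TPM or more. Of 24 assembly factors 20 lay below 0, with a median of -0.17 and none past 2-fold. After centring on the genes at 10 TPM or more 18 of 24 did, with a median of -0.08. FASTKD2, which is needed for the large ribosomal RNA, was listed at 19.5 TPM without metformin and 13.1 with it, and the RNA methyltransferase MRM1 at 8.23 and 5.58. NSUN4 and METTL15, also methyltransferases, were at 11.7 and 12.5 TPM and at 9.28 and 10.8. MALSU1, the partner of MRPL14, stood at 0.891 of control.

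Of 17 factors of mitochondrial translation 15 lay below 0, with a median of -0.21. After centring on the genes at 10 TPM or more 11 of 17 did, with a median of -0.12. MTRF1L, a release factor, stood at 49.1 and 33.4 TPM, a ratio of 0.681, and SLIRP, which binds mitochondrial mRNAs, at 744 and 514, a ratio of 0.691. OXA1L, which inserts the new proteins into the inner membrane, was at 104 and 121 TPM and MTRFR, a rescue factor, at 34.7 and 40.6. Among 20 mitochondrial aminoacyl-tRNA synthetases and amidotransferase subunits 14 lay below 0, near that background. Their median was -0.14 (interval over the genes -0.24 to 0.01), beside -0.09 for the genes at 10 TPM or more. After centring on those genes 13 of 20 lay below 0, with a median of -0.05. Ratios ran from CARS2 at 0.694 and EARS2 at 0.780 to HARS2 at 1.25 and PARS2 at 1.31.

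Of 6 genes of mitochondrial DNA transcription and copying 5 lay below 0, with a median of -0.35. Centred on the genes at 10 TPM or more, 4 of 6 did, with a median of -0.27. TFAM stood at 40.5 and 24.4 TPM, MTERF1 at 19.8 and 12.7, TFB2M at 47.7 and 32.4, TEFM at 11.9 and 10.5, POLRMT at 46.7 and 46.5 and POLG at 27.0 and 39.5. The mitochondrial rRNA genes were listed at higher values in metformin, 1294 and 2072 TPM for RNR1 and 4595 and 8678 for RNR2, in libraries from a kit that selects polyadenylated RNA. Of the 77 protein genes 13 were likewise above 0, and 64 were below.

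The cytosolic ribosome went the other way from the mitochondrial one. Of 78 cytosolic ribosomal protein genes 12 lay below 0, with a median of 0.09 (0.06 to 0.14), and their summed TPM had a ratio of 1.09. The medians of the cytosolic and mitochondrial genes had opposite signs as deposited and after removal of the trend over GC content and length, at 0.10 and -0.20. The difference between these groups was not tested, since there is 1 library per group.

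**Figure D3:**
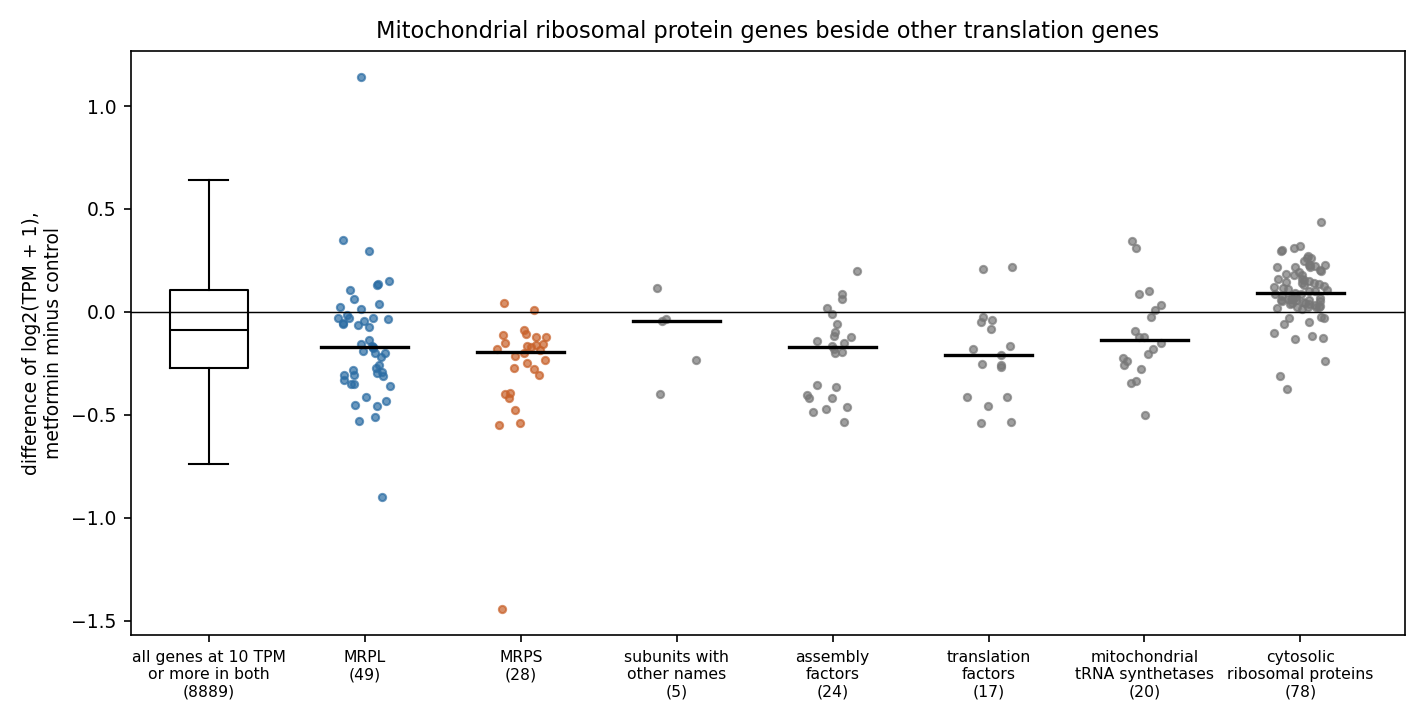
Difference of log2(TPM + 1), metformin minus control, for single genes (points) and the median of each group (bars), with the number of genes in parentheses; the box gives the quartiles and the whiskers the central 95% of all genes with at least 10 TPM in each library. The MRPL and MRPS medians, -0.17 and -0.19, lie beside those of assembly factors, translation factors and mitochondrial tRNA synthetases, and that of cytosolic ribosomal proteins lies above 0.

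The difference was related to the GC content of the transcript in the large-subunit genes, as in the whole table, but hardly in the small-subunit genes. The Spearman correlation across genes was 0.38 over the 77, 0.47 over the 49 large-subunit and 0.06 over the 28 small-subunit genes, beside 0.35 over the 8661 genes at 10 TPM or more with a known transcript. With transcript length the correlation was -0.29 over the 77 and -0.07 over the 8661 genes. Genes of 1 library pair are not independent, so these are descriptions. In the 26 members of lowest GC content (35.0 to 44.9%) the median difference was -0.29, and over all 4803 measured genes in that range -0.20. In the 25 of highest GC content (53.0 to 66.7%) it was -0.11, beside 0.04 over 4479 genes. After removal of the trend the median of the 77 was -0.20, that of MRPS27 -1.41, of MRPL1 -0.69 and of MRPL10 1.06. MRPS34, one of the GC-rich members at 64.6%, moved from -0.55 to -0.72.

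**Figure D4:**
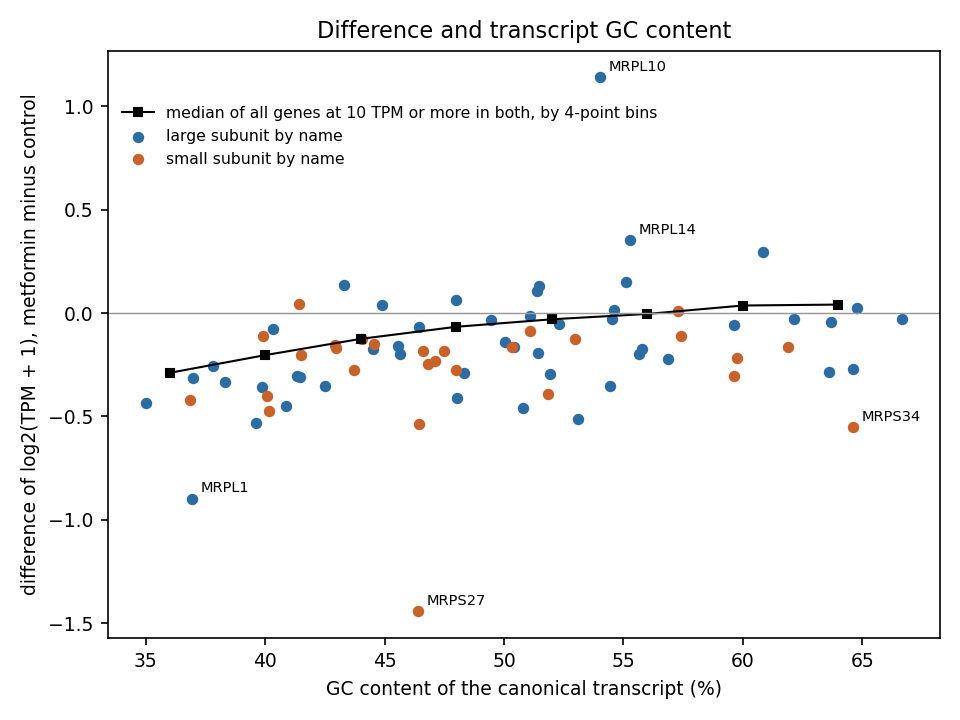
Difference of log2(TPM + 1), metformin minus control, against the GC content of the canonical transcript in percent for the 77 genes, coloured by subunit name; black squares join the medians of all genes with at least 10 TPM in each library in bins of 4 points. That median runs from -0.29 in the lowest bin to 0.04 in the highest, and most members lie under it.

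Some of these genes start close to a neighbour read in the opposite direction. By the deposited positions, 30 of the 77 start within 1000 bases of the start of a gene on the other strand. Another gene is overlapped by 20, 15 on the other strand and 5 on the same one. The same shares were not computed over all genes, and closeness of the starts does not show a shared promoter. The sources do not say whether strand was used in counting, so reads in those overlaps may be shared. Without the 20 overlapping genes the median was -0.17. One pair joins the 2 subunits: MRPL46 and MRPS11, 51 bases apart on chromosome 15, stood at 0.810 (0.720 to 0.911) and 0.888 (0.780 to 1.01), with overlapping intervals.

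The neighbours' own values went in both directions, more of them below 0. Of 29 measured neighbours 20 lay below 0 (69.0%, beside 59.7% of all measured genes), with a median of -0.22, beside -0.08 for all measured genes. After centring on the genes at 10 TPM or more 19 of 29 did, with a median of -0.14. The 29 include MRPL46 and MRPS11, which are members themselves and both lay below 0. MTBP beside MRPL13, SKA3 (a kinetochore gene) beside MRPL57 and NCAPD2 (a condensin gene) beside MRPL51 had ratios of 0.504, 0.524 and 0.572, where the members had 0.690, 0.811 and 0.871. MRPL13 and MTBP overlap by a few bases, and MRPL57 and SKA3 overlap too. PTCD2, which starts 110 bases from MRPS27, was listed at 11.6 TPM without metformin and 9.85 with it, a ratio of 0.847, far from the 0.363 of MRPS27. LRRC46, 86 bases from MRPL10, was at 2.37 and 2.63 TPM, a ratio of 1.11. SARS2, which overlaps the start of MRPS12, stood at 1.07. KLC4 beside MRPL2 and APBA3 beside MRPL54 had ratios of 1.38 and 1.34, and OAZ3, which overlaps MRPL9, stood at 1.62 and 2.87 TPM, a ratio of 1.77.

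The letters around the starts were searched for 9 motifs. Windows of 250 bases before to 50 after the start were taken from RefSeq on GRCh38.p14 for 69 of the 77 genes. MRPL2, MRPL10, MRPL13, MRPL15, MRPL21, MRPL23, MRPL35 and MRPS28 had no window in that table. Both strands were searched, and a match is a description of letters, not of binding. CCGGAAG, the core of ETS factor sites, was in 29 of 69 windows (42.0%), beside 19.99% of the windows of 10151 measured protein-coding genes and 10.7% of all 27305 windows. AAGATGGCG, known from sites of the factor YY1, was in 13 (18.8%), beside 4.12% and 1.85%. Its length was set after matches of longer forms had been seen, and 10 of its 14 matches lie after the start. CGCNTGCG, known from sites of the factor NRF1, was in 13 (18.8%), near the 19.9% of measured protein-coding genes. GGGCGG (SP1) was in 60.9% beside 71.4%, ATTGG (NF-Y) in 28.99% beside 37.1%, CACGTG (E-box) in 8.70% beside 10.5% and TATAAA in 2.90% beside 5.21%. TGACGTCA (CRE) was in 0 windows beside 3.39%.

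The YY1 letters were shown for the genes in which they lie across the start codon. In the canonical transcripts of GENCODE, the ATG of AAGATGGCG is the start codon itself in 9 of 77 members (11.7%), beside 2.77% of 12047 measured protein-coding genes. The shorter ATGGCG, a start codon followed by GCG, is also more common in members, in 28 of 77 (36.4%) beside 12.2% of those genes. Whether the motif letters are a site of YY1 or belong to the coding start was not tested. Capitals mark the motif, and each line reads along the strand of the gene.
MRPS30 (chr5:44808950-44808979, plus strand): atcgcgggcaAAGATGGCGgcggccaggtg
MRPL50 (chr9:101398576-101398605, minus strand): gatctcatcgAAGATGGCGgcgcgatctgt
MRPS18B (chr6:30617853-30617882, plus strand): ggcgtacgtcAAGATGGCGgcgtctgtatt
MRPL46 (chr15:88467361-88467390, minus strand): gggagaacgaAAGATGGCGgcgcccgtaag
MRPS10 (chr6:42217833-42217862, minus strand): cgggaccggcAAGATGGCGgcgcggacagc
MRPS24 (chr7:43869479-43869508, minus strand): cgcttggcccAAGATGGCGgcctccgtgtg
MRPL22 (chr5:154941093-154941122, plus strand): gtagcgggagggcgaAAGATGGCGgcggca
MRPL38 (chr17:75904859-75904888, minus strand): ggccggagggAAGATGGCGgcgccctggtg
MRPS18A (chr6:43687763-43687792, minus strand): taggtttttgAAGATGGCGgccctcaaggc

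These 9 genes are listed from the lowest to the highest difference, -0.54 for MRPS30 and 0.01 for MRPS18A. MRPS27, MRPL1 and MRPL10, the genes farthest from the rest, are not among them. The median difference of all 13 genes with the motif was -0.17, and of the 56 without it -0.20. MRPL36 and MRPL32 hold it on the other strand before their start and MRPL52 holds it at 2 places before its start. MRPL42 holds it on its own strand after the start, but there the ATG is not the start codon of the canonical transcript.

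The ETS letters were shown for members with differences from -0.55 (MRPS34) to 0.30 (MRPL54), since they were found in genes below and above 0. Of 39 matches in the 29 windows 27 began within 50 bases of the start. Capitals mark 1 match per line, as CCGGAAG or, on the other strand, CTTCCGG. The MRPS34 line holds another match, which is left in lower case.
MRPS34 (chr16:1773145-1773174, minus strand): gacaccggcctCTTCCGGtgacttccggcc
MRPS31 (chr13:40771204-40771233, minus strand): aaggcgccaggCCGGAAGcggaagagaggg
MRPL3 (chr3:131502985-131503014, minus strand): tgtaaaacgcaCCGGAAGtgggtccggcgg
MRPS18A (chr6:43687804-43687833, minus strand): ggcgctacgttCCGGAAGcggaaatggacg
MRPL58 (chr17:75012651-75012680, plus strand): ggaagcgcccgCCGGAAGcagtcgcaagac
MRPL54 (chr19:3762650-3762679, plus strand): gccactgacgtCTTCCGGaaacgtgcactt

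MRPS34 and MRPS31 had ratios of 0.681 and 0.713 and MRPL58 and MRPL54 of 1.095 and 1.23, each with this match in the window. The median difference was -0.18 over the 29 genes with it and -0.22 over the 40 without. The windows of MRPS27 and MRPL1 held none of the 3 motifs, which says only that these letters are not there. ATTGCATCA, a form of the element bound by ATF4, was in none of the 69 windows, beside 0.128% of those of measured protein-coding genes.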

How the data were processed

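Poly(A) RNA of 1 control and 1 metformin sample was sequenced. The labels' protocols name Bowtie2 and hg19 for mapping, and the submitters' processing notes name HISAT2 and Trimmomatic 0.38 beside GRCh37 and hg19. No source names the program that made the abundance values. The deposited tables give TPM, FPKM and coverage (a signal, the mean read depth) per gene, computed by the authors. TPM was used for the values, and the deposited FPKM and coverage for depth and alternatives.

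The members and all lists were chosen with earlier results of these data known. Symbols came from RefSeq by NCBI gene ID, with 27559 IDs matched and 126 not. Rows of an ID were summed. The difference used log2(TPM + 1), which understates low genes; ratios are plain TPM ratios. Read pairs were estimated from FPKM, the largest ratio of coverage to FPKM, the length of a read pair and the median length of a gene's coding GENCODE 44 transcripts, and gave the counting intervals. They summed to 88.1% and 87.9% of the library totals. PCR duplicates can make the intervals too narrow. Transcript GC content and length were known for 93.7% of measured genes, and their quadratic trend was removed in an alternative. Gene positions are those of the tables, on hg19. Every member could be named; other genes were the highest and lowest 2 of a list, all of a list of up to 8 genes, partners of a named member, or neighbours of members, and the neighbours named were chosen after their values were seen. The length of the YY1 and NRF1 motifs was set after matches of longer forms had been seen. The steps were tested on simulated data. Python 3.11.15, numpy 2.4.6, pandas 2.3.3 and scipy 1.17.1 were used.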

Additional observations from a re-analysis of the deposited data

How the results depend on the processing

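With 1 library per group there is no replicate to leave out. No paired analysis was possible because each group has a single library. The group median of -0.18 stayed below 0 under every alternative, from -0.09 to -0.20. It was -0.15 with FPKM, -0.094 after centring on the genes with at least 10 TPM in each library (a shift of -0.09) and -0.11 with trimmed mean scaling (a shift of -0.08). For the small subunit it was -0.10 and -0.12 in these last 2. The summed ratios of the large and small subunit became 0.912 and 0.856 with FPKM and 0.939 and 0.881 with trimmed mean scaling. The small-subunit ratio was 0.818 without overlapping genes, 0.854 with the 5 subunits of other names and 0.852 without MRPS27, MRPL1 and MRPL10, an alternative chosen after seeing the data, which left 0 genes past 2-fold. The number below 0 was 59 with FPKM, 54 after centring and 55 with trimmed mean scaling, so the sign of up to 10 members near 0 depended on the scaling. MRPS27 and MRPL10 stayed past 2-fold in each. Centring of the role and origin groups was added after seeing the data.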
